A study of Mus musculus with 2 samples.

Results

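The genes described here serve protein entry into the endoplasmic reticulum (ER) and protein folding there, and were followed through the embryonic mouse pancreas. They were found by symbol, from a given list of genes, and are 41 of the 27998 genes in the deposited matrices; each symbol matched once. Their roles comprise 6 genes of the translocon, 4 of the TRAP complex, 5 of signal peptidase, 7 of the signal recognition particle (SRP) and its receptor, and 5 of oligosaccharyltransferase. The folding side holds 8 genes of the BiP system and its UPR-induced cofactors, 2 lectin chaperones and 4 protein disulfide isomerases.

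A ribosome that begins a secreted protein is bound by SRP, docks at the SRP receptor and threads the chain through the Sec61 channel, where signal peptidase removes the signal peptide and oligosaccharyltransferase adds sugar chains. In the ER lumen the chaperone BiP, the lectins calreticulin and calnexin and the disulfide isomerases fold the chain. When unfolded protein builds up, the unfolded protein response (UPR), run by the sensors IRE1, PERK and ATF6, raises the transcription of many of these genes. Acinar and endocrine cells of the pancreas are known for a large ER, since they secrete digestive enzymes and hormones, and fibroblasts secrete collagen.

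The knockout-labelled library came from the pancreas of 1 C57BL/6 embryo of embryonic day 13.5, titled knockout and described in the series' design as Dpy30∆P, and the control library from 1 C57BL/6 control embryo of the same day. DPY30 is a core subunit of the complexes that methylate histone H3 at lysine 4. Neither the deleted part of the gene nor the Cre driver is named in the labels. Live cells, sorted from each embryo, were profiled with 10x Genomics 3′ sequencing, which counts transcripts by unique molecular identifiers (UMIs).

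The knockout-labelled library held 3044 barcodes and 28033433 UMIs with a median of 8049 UMIs, against 3900 barcodes and 32702089 UMIs with a median of 6826 in the control library. The libraries shared 22 barcode sequences. Dpy30 was not lower in the library labelled knockout in 6 of the 7 cell classes below. It had 269 CPM (UMIs scaled to a class total of 1000000) there against 241 CPM in control tip cells, 434 against 240 CPM in early endocrine cells, and 151 against 180 CPM in mesothelium. A 3′ tag outside a deleted part checks nothing, so the label stands as deposited and every direction below rests on it. The embryos were of opposite sex, with 58508 Xist UMIs in the knockout-labelled library against 2 in the control library, and 0 against 1847 UMIs of the Y-linked Ddx3y. Sex, embryo, library and genotype cannot be told apart here. With 1 library per group no test between groups was possible, and all intervals are 95% exact intervals or, for ratios of shares, log-normal ones, and cover counting error alone.

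The cells followed here fell into 7 classes by gates on raw UMIs of marker genes, none of which is one of the 41. The knockout-labelled and control libraries gave 203 and 250 tip cells (by a set of acinar marker genes that includes Ctrb1, Rbpjl and Ptf1a). Trunk cells (Spp1 without Neurog3) numbered 119 and 177. They gave 52 and 116 endocrine progenitors (Neurog3) and 17 and 59 early endocrine cells (Chga). Outside the epithelium they gave 36 and 49 Lum-high cells, 226 and 350 other mesenchymal cells and 167 and 187 mesothelial cells. Median depth lay between 7939 and 17607 UMIs per class in the knockout-labelled library and between 7212 and 18083 UMIs in the control library, highest in tip cells and near the lowest in early endocrine cells. Marker lists outside the gates followed the names of the classes only in part. The tip list summed to 1617 and 1893 CPM in tip cells, the knockout-labelled library first, and to at most 486 CPM in the other classes. Pnliprp1 alone gave 849 and 1232 CPM of it, and Gata4 was near level in tip (16.6 and 13.0 CPM) and mesothelium (12.1 and 13.7 CPM). The early endocrine list summed to 17184 and 24585 CPM in its class and 789 and 642 CPM in progenitors. Its hormone-cell gene Chgb had 13116 and 14196 CPM there, against 3.03 and 6.14 CPM in trunk. Rfx6 was level with progenitors (36.8 and 46.2 against 34.5 and 46.6 CPM), and Ins1 was at 0 in the knockout-labelled library. The Lum-high list had 4569 and 5650 CPM in Lum-high and 3328 and 3903 CPM in other mesenchymal cells. Its gene Aspn was higher in knockout-labelled Lum-high cells (33.3 against 22.4 CPM) but lower in control ones (41.8 against 63.7 CPM). The endocrine progenitor list did not divide the endocrine classes, with 2179 and 2766 CPM in progenitors and 2604 and 2733 CPM in early endocrine cells, where Neurod1 and Fev of the list were higher than in progenitors. The trunk list was close to level with other mesenchyme in the control library, at 1356 and 1606 CPM in trunk and 952 and 1545 CPM in other mesenchyme, and its Notch target gene Hes1 was higher in other mesenchyme (526 and 1112 CPM) than in trunk (303 and 413 CPM). The mesothelial list, which holds the keratins Krt8 and Krt18, was lower in mesothelium (711 and 718 CPM) than in trunk (1462 and 2009 CPM). Its gene Wt1 had 190 and 173 CPM in mesothelium and at most 21.2 CPM in the other classes, and Upk2 was at 0 in mesothelium in both libraries. The gate of at least 20 collagen UMIs was strict, and with it 1952 and 2324 cells were unassigned. A gate at 5 UMIs, added after seeing the data, gave 1907 and 2300 other mesenchymal cells and still left 240 and 315 cells unassigned. A further 63 and 89 epithelial cells met no gate within the epithelium and are outside the 7 classes.

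Early endocrine cells gave the largest share of their UMIs to the 41 genes in both libraries. It was 1.30% (1.24 to 1.36) in the knockout-labelled library and 1.48% (1.44 to 1.51) in the control library. Tip cells gave 1.02% and 1.14%, Lum-high cells 1.08% and 1.10%, endocrine progenitors 0.971% and 1.05%, and trunk cells 0.951% and 0.997%, the knockout-labelled library first in each pair. Other mesenchyme, at 0.891% and 0.930%, and mesothelium, at 0.867% and 0.957%, were lowest of the 7. Endothelial cells (0.747% and 0.909%), immune cells (0.776% and 0.717%) and neural cells (0.749% and 0.739%) lay lower still, in 22 to 83 cells each. Epithelial cells outside the 7 classes gave 0.877% and 0.985%. Single early endocrine cells spread widely, with quartiles of 0.895% and 1.78% in the knockout-labelled library and 0.907% and 1.77% in the control library.

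**Figure D1:**
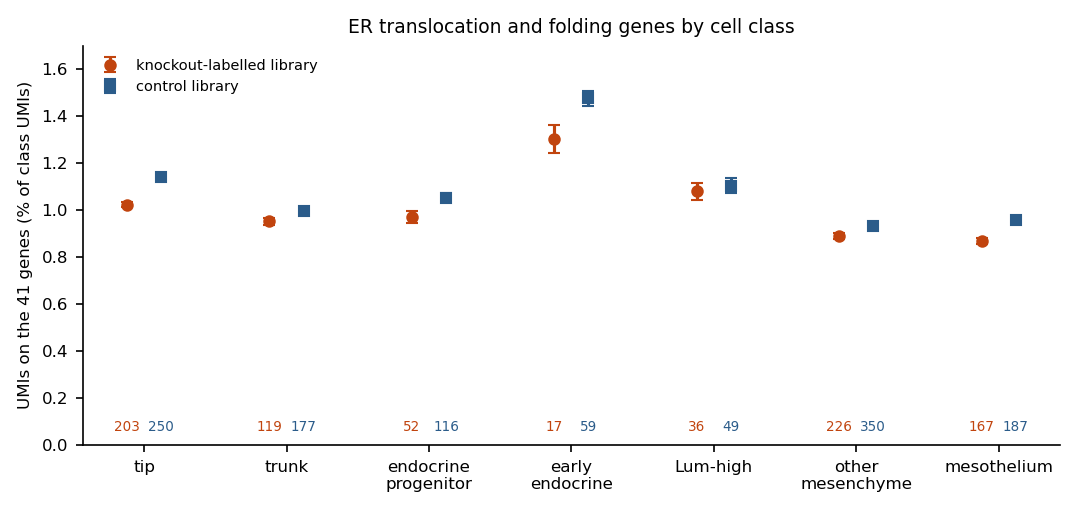
Share of the UMIs of each cell class that fell on the 41 genes (vertical axis, %), with 95% exact binomial intervals for counting error; circles are the knockout-labelled library, squares the control library, and the numbers along the bottom count cells. Early endocrine cells sit highest at 1.30% and 1.48%, and the knockout-labelled value lies below the control value in all 7 classes.

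The classes differ in what they secrete. Digestive enzyme genes took 0.791% of tip UMIs in the knockout-labelled library and 1.13% in the control library, against 0.0311% and 0.0392% in trunk and 0.00715% and 0.0103% in other mesenchyme, a class that should lack them. Hormone and granule genes took 2.16% and 3.36% of early endocrine UMIs, led by the granin Chgb, the hormone genes Gcg (1766 and 7073 CPM) and Pyy (1964 and 3639 CPM). In these cells Iapp had 22.1 and 1670 CPM, Ghrl 0 and 582 CPM, Ins2 0 and 431 CPM and Sst 0 and 196 CPM. The granule genes Cpe (920 and 575 CPM) and Pcsk1n (677 and 571 CPM) went the other way. The early endocrine cells of the libraries thus held hormone RNA in unlike amounts. Collagen genes took 0.447% and 0.586% in Lum-high cells, 0.369% and 0.471% in other mesenchyme and 0.186% and 0.182% in mesothelium. The tip, Chga and collagen gates use some of these genes, so the loads are partly set by the gates. In the knockout-labelled library the Chga cells also held enzyme transcripts, 0.407% of UMIs against 0.0656% in the control library. One knockout-labelled cell held 439 of those 553 enzyme UMIs; without Chga cells of at least 10 tip marker UMIs (1 in each library) the share of the 41 genes was 1.30% and 1.46%.

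In early endocrine over trunk cells 9 of the 24 entry genes measured and 3 of the 7 genes measured of the BiP system were higher in both libraries by the fold used here. A gene was counted as called when log2 of (CPM + 5) differed by at least 1.5-fold the same way in both libraries, among genes with at least 50 CPM in either class and at least 20 UMIs over both classes in each library. Of the 37 of the 41 genes measured, 12 were called higher and 0 lower in early endocrine cells, where 22.9% of all 3247 measured genes were called higher and 18.4% lower (41.3% in all). The median log2 ratio was 0.39 over the 37 genes and 0.12 over all genes. In 27 of the 37 the ratio was positive in both libraries and in 1, Dnajc3, negative in both. The same count over all genes, whose median was itself above 0, is not given here. Leaving out haemoglobin, mitochondrial and ribosomal genes moved the median of all genes to -0.15 and that of these genes to 0.14, and left 6 of 38 called higher, where 15.9% of all genes were called higher and 23.7% lower. TMM scaling moved the medians to -0.27 and 0.05, and left 5 of 38 called higher (Manf, Sec11c, Sec61b, Spcs1 and Srp14) where 13.7% of all genes were called higher and 29.0% lower. In both of these settings the share of the genes called higher was near that over all genes.

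In the SRP group, Srp14, a subunit of the particle's Alu domain, had 478 CPM in early endocrine and 206 CPM in trunk cells of the knockout-labelled library, against 518 and 196 CPM in the control library. That is a 2.32-fold (1.75 to 3.04) and a 2.64-fold (2.26 to 3.07) difference. Endocrine progenitors lay between, at 281 CPM in the knockout-labelled and 326 CPM in the control library. Srpr, the alpha subunit of the SRP receptor, had 265 and 73.3 CPM in early endocrine and trunk cells of the knockout-labelled library and 152 and 86.8 CPM in the control library. Summed over the 7 genes of the group, early endocrine cells stood 1.62-fold and 1.66-fold over trunk cells.

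At the channel, Sec61b, the beta subunit of Sec61, had 1582 CPM in early endocrine and 694 CPM in trunk cells of the knockout-labelled library, and 1566 and 783 CPM in the control library, or 2.28-fold (1.96 to 2.64) and 2.00-fold (1.84 to 2.17). Its partner subunit Sec61g, with 1162 and 945 CPM in the knockout-labelled and 1172 and 946 CPM in the control library, was not called. Ssr4 and Ssr2 of the TRAP complex, which assists the entry of some chains, were called. Ssr4 had 537 and 291 CPM in early endocrine and trunk cells of the knockout-labelled library and 505 and 301 CPM in the control library. Ssr4 lies on the X chromosome, and its ratios between the 2 libraries ran from -0.16 to 0.13 on the log2 scale.

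Among the enzymes that act on the entering chain, the signal peptidase subunit Spcs1 had 493 and 234 CPM in early endocrine and trunk cells of the knockout-labelled library and 435 and 228 CPM in the control library. Sec11c, one of the alternative catalytic subunits, was low outside early endocrine cells. It had 73.6 and 30.3 CPM in those classes of the knockout-labelled library (10 and 50 UMIs, 1.10 to 4.85-fold) and 105 and 28.9 CPM in the control library. The other catalytic subunit, Sec11a, was not called, with 199 and 213 CPM in the knockout-labelled and 276 and 233 CPM in the control library. Ddost and Rpn1 of oligosaccharyltransferase were called, Ddost with 405 and 223 CPM and with 407 and 235 CPM. Dad1, its small subunit, was not called, at 361 and 282 CPM in early endocrine and trunk cells of the knockout-labelled library and 383 and 253 CPM in the control library.

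Of the folding genes, 3 of the BiP system were called. Manf, a BiP cofactor that is itself secreted under ER stress, had 493 CPM in early endocrine and 222 CPM in trunk cells of the knockout-labelled library and 666 and 237 CPM in the control library. Its 2.22-fold (1.68 to 2.88) and 2.81-fold (2.45 to 3.21) difference was the largest of this group among genes measured, and the BiP co-chaperone Dnajb11 and the disulfide isomerase Creld2 were also called. For Creld2 the knockout-labelled value rested on 13 UMIs, with an interval of 0.929 to 3.27-fold. Hspa5 (BiP) was not called, with 559 and 434 CPM in the knockout-labelled and 773 and 452 CPM in the control library. Hsp90b1 (GRP94) had 566 and 612 CPM in the knockout-labelled and 758 and 717 CPM in the control library. None of the 2 lectins and 4 disulfide isomerases was called. Calr had 574 CPM in early endocrine and 623 CPM in trunk cells of the knockout-labelled library, and 1097 and 680 CPM in the control library, so the libraries differed in direction. Pdia3 had 383 and 321 CPM and 338 and 287 CPM, and P4hb had 154 and 191 CPM and 244 and 214 CPM, each pair in the same order.

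**Figure D2:**
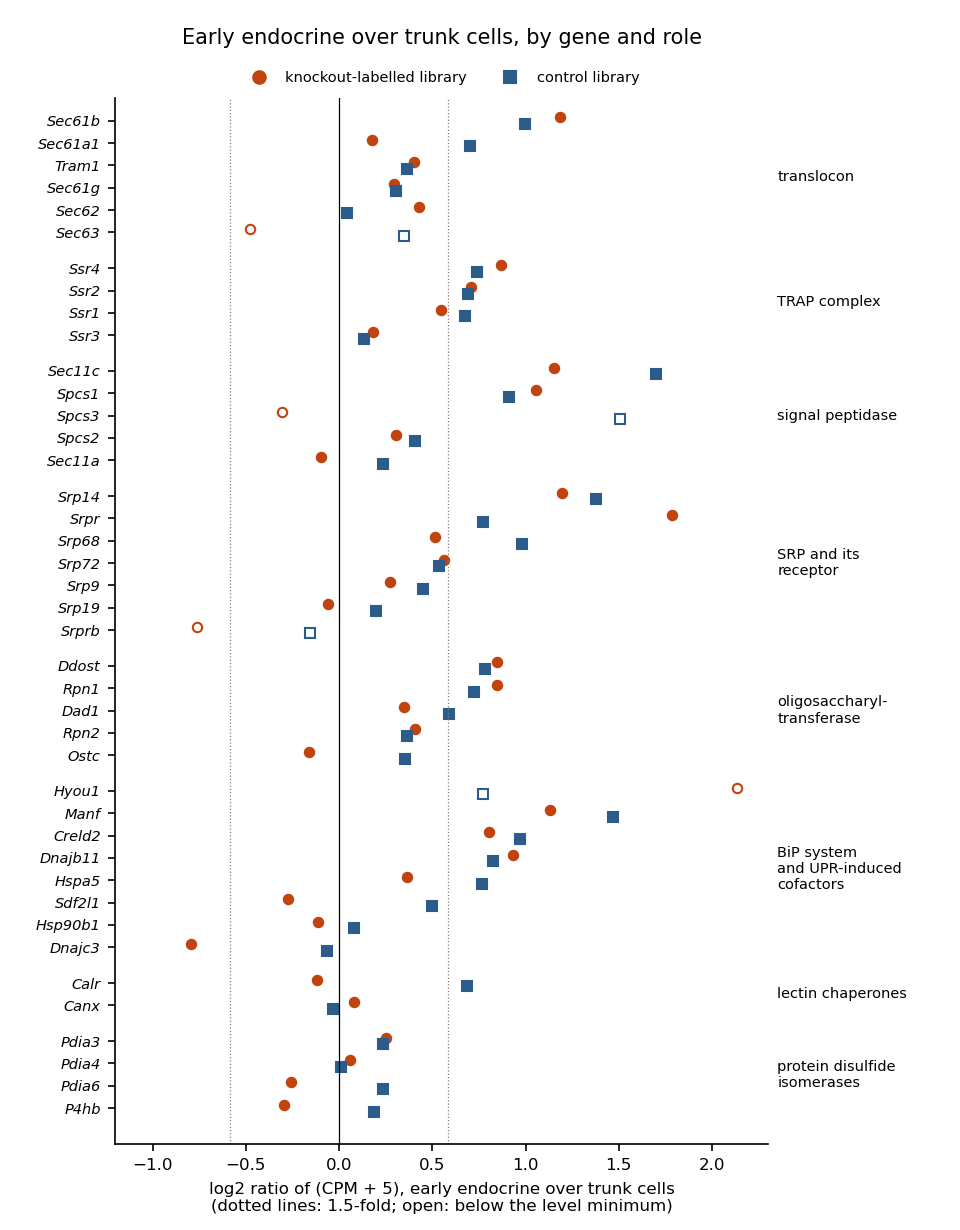
Log2 ratio of (CPM + 5) in early endocrine over trunk cells (horizontal axis) for each of the 41 genes, grouped by role; circles are the knockout-labelled library, squares the control library, open symbols lie below the level minimum and dotted lines mark 1.5-fold. Sec61b, Srp14, Spcs1, Sec11c and Manf lie right of the line in both libraries, and the lectins and disulfide isomerases gather about 0, apart from Calr in the control library.

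Of the 31 genes with a promoter sequence at hand 7 carry in it the letters of the ER stress response element (ERSE) through which ATF6, with the factor NF-Y, is known to act. The windows are shown because this element is known from the promoters of BiP, GRP94 and calreticulin. The motif, CCAAT and CCACG with 9 bases of any kind between them, was searched on both strands in RefSeq windows of GRCm38.p6 from 250 bases before to 50 after each start; the table has such a window for 31 of the 41 genes, without Hyou1, Manf, Ostc, Sec11c, Sec61a1, Spcs3, Srp19, Srp68, Ssr2 and Tram1, which were not searched. It was found in 7 of these 31 (22.6%) and in 37 of 27025 genes overall (0.137%). Each window below is written 5′ to 3′ in the direction of the motif, with CCAAT and CCACG in capitals and 20 bases on either side.
Hspa5, chr2:34772005-34772063, plus strand: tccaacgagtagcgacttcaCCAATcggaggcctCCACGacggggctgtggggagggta
Hsp90b1, chr10:86705618-86705676, minus strand: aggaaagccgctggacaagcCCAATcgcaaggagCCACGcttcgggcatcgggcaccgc
Hsp90b1, chr10:86705513-86705571, plus strand: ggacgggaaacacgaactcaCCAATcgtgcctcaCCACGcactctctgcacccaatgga
Dnajc3, chr14:118937807-118937865, plus strand: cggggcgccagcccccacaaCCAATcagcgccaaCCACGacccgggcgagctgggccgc
Creld2, chr15:88819500-88819558, minus strand: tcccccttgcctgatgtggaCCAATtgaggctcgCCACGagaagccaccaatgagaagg
Calr, chr8:84847055-84847113, plus strand: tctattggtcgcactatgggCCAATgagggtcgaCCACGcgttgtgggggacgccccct
Canx, chr11:50325780-50325838, minus strand: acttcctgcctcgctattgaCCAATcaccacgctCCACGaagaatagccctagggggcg
Pdia6, chr12:17266471-17266529, plus strand: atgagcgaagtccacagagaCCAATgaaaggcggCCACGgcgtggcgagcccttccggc

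The motif matches begin between 212 and 65 bases before the start. ERSE-II (ATTGG and CCACG with 1 base between them) was found in 1 of the 31 genes searched, Dnajb11, and in 12 of all genes, and the core of the XBP1 element (TGACGTGG, whose reverse strand holds the CCACG of ERSE) in 0 of the 31 and in 193 of all genes (0.714%). A match is a string of letters in the window and was not tested for binding. In early endocrine over trunk cells the median log2 ratio was 0.03 over the 7 genes with an ERSE, 0.43 over the 22 measured genes that were searched and lack it, and 0.57 over the 8 measured genes not searched, against 0.12 over all genes. In tip over trunk it was 0.15 over the 7, of which 6 were higher in both libraries, 0.10 over the 22 searched that lack it and 0.08 over the 7 not searched, against -0.13 over all genes. These medians describe the sets, and no difference between them was tested.

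The deposited table of the submitters' cluster markers gives a natural-log fold of each listed gene in a cluster. In the authors' deposited table, the cluster led by Gcg, Pyy and Chgb listed 19 of the 41 genes, and all 19 were higher, where 61.2% of the 1561 genes listed for it were higher. Manf led at 0.87, then Srp14 at 0.71, Sec61b at 0.64 and Hspa5 at 0.56 in the authors' deposited table. The table does not say which cells are in a cluster. In the authors' deposited table the cluster led by Neurog3 and Cck listed 10 of the genes, 2 higher (Srp14 at 0.49 and Sec62 at 0.32) and 8 lower, with Pdia6 lowest at -0.44, where 54.3% of the 1194 genes listed for it were higher. Both clusters of the authors' deposited table that digestive enzyme genes lead listed few of the genes, the cluster led by Ctrb1 2 (Sec62 and Srp14, both lower) and the other 4 (Dnajc3 and Ssr1 higher, Sec62 and Srp14 lower), where 30.2% and 38.5% of all genes listed were higher. The cluster led by Spp1 in the authors' deposited table listed 1 of them, Manf, at -0.34.

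Endocrine progenitors had no gene of the set called against trunk cells. Of 37 measured 0 were called, where 10.7% of all genes were called higher and 8.44% lower (19.2% in all), and the median was 0.02 against -0.01 for all genes. By role, signal peptidase was 1.20-fold and 1.21-fold over trunk and SRP 1.10-fold and 1.23-fold, while oligosaccharyltransferase stood at 0.859-fold and 0.924-fold, the knockout-labelled library first.

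Tip cells, which had most digestive enzyme RNA, carried slightly more of these transcripts than trunk cells. None of the 36 genes measured was called in tip over trunk, where 3.04% of all genes were called higher and 5.59% lower (8.63% in all). Of the 36 genes, 21 were higher in both libraries and 5 lower in both, and the median was 0.13 against -0.13 over all genes. How many of all genes kept their direction in both libraries is not given here. The TRAP complex differed most, at 1136 summed CPM in tip and 893 CPM in trunk cells of the knockout-labelled library and 1265 and 929 CPM in the control library, or 1.27-fold and 1.36-fold. Its 4 members were higher in both libraries, with 516 and 389 CPM of Ssr2 in the knockout-labelled library and 563 and 413 CPM in the control library. SRP was level, at 0.971-fold and 0.991-fold, and Srp14 was lower in tip, with 165 and 206 CPM in the knockout-labelled library and 153 and 196 CPM in the control library. Hspa5 had 475 and 434 CPM in the knockout-labelled library and 454 and 452 CPM in the control library, and Hsp90b1 678 and 612 CPM and 788 and 717 CPM. TMM scaling, which moved the median of all genes to 0.14, called 3 genes higher in tip (Manf, Ssr1 and Ssr2), where 5.56% of all genes were called higher and 3.10% lower. Median-of-ratios scaling called Ssr2, where 4.61% were called higher and 3.55% lower.

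**Figure D3:**
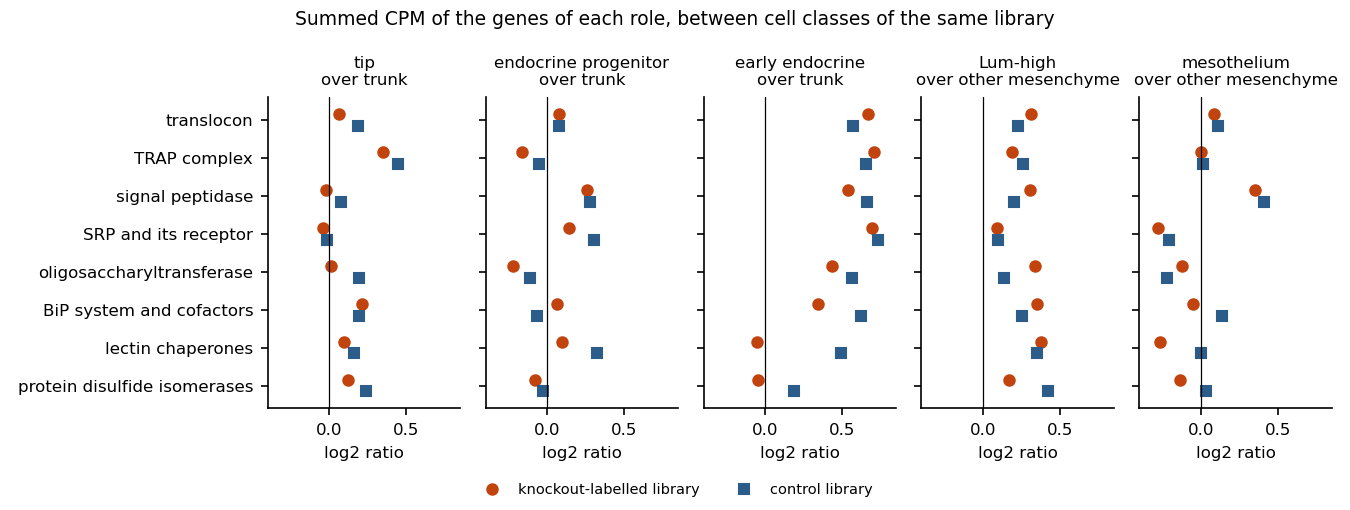
Log2 ratio of the summed CPM of the genes of each role between cell classes of the same library (horizontal axes, one panel per pair of classes); circles are the knockout-labelled library and squares the control library. The 5 entry roles lie between 0.43 and 0.73 in early endocrine over trunk cells in both libraries, the TRAP complex leads in tip over trunk cells, and all 8 roles lie right of 0 in Lum-high over other mesenchymal cells.

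Within a class, cells with more cargo RNA gave a larger share to the 41 genes. Cells of each library were ranked by their cargo share and divided into 3 equal groups, and the share of the 41 genes was taken of the UMIs left without cargo. In tip cells it was 0.963%, 1.04% and 1.10% from the lowest to the highest group by enzymes in the knockout-labelled library and 1.03%, 1.14% and 1.30% in the control library. The high group stood 1.15-fold and 1.26-fold over the low group. In early endocrine cells the shares were 1.23%, 1.28% and 1.53% from low to high hormone load in the knockout-labelled library, in 5 or 6 cells each, and 1.36%, 1.53% and 1.71% in the control library. In other mesenchyme they were 0.865%, 0.889% and 0.954% along the collagen load in the knockout-labelled library and 0.881%, 0.944% and 1.02% in the control library. Lum-high cells gave 1.04%, 1.04% and 1.21%, and 0.913%, 1.23% and 1.25%. Depth moved with the collagen groups, since median UMIs were 11670.5, 8359 and 6266 from the low to the high group of other mesenchyme in the knockout-labelled library, and 9694, 6916 and 5848.5 in the control library; its part in the result was not tested. In tip cells they were 18574.5, 17555.5 and 16519 in the knockout-labelled library and 17236.5, 18648 and 18373 in the control library.

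**Figure D4:**
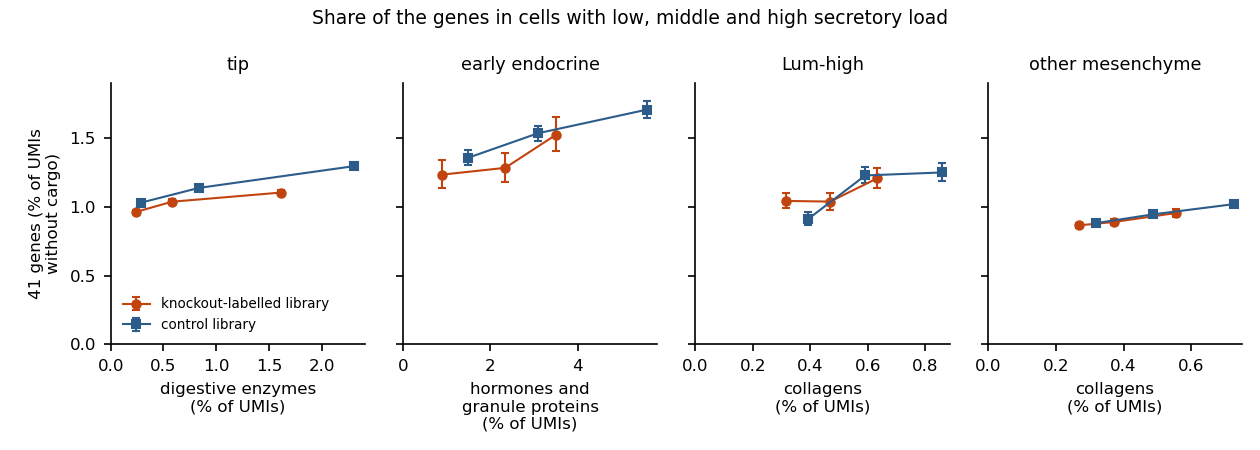
Share of the 41 genes in the UMIs without cargo (vertical axis, %) against the share of cargo UMIs (horizontal axes, %) for the low, middle and high group of cells by cargo; circles are the knockout-labelled library, squares the control library, and bars are 95% exact binomial intervals. In each of the 8 lines the high group lies above the low group, in tip cells 1.10% against 0.963% in the knockout-labelled library and 1.30% against 1.03% in the control library.

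Single genes were then compared between the high and the low group of tip cells by enzymes, a contrast added after seeing the data. Of the 35 measured 0 were called, where 2.36% of all genes were called higher in the high group and 1.10% lower (3.45% in all), but 26 were higher in both libraries and 4 lower in both. Over all 2461 genes measured, 603 were higher and 1086 lower in both, and the median was 0.22 over the 35 genes and -0.06 over all genes. Dnajc3, a BiP co-chaperone, had log2 ratios of 0.35 in the knockout-labelled and 0.88 in the control library, Manf 0.48 and 0.60, Pdia6 0.40 and 0.62, Ssr2 0.47 and 0.50 and Pdia4 0.38 and 0.54. Srp14 went the other way at -0.11 and -0.23. Xbp1, whose spliced product is the transcription factor of the IRE1 branch, was called. It had 296 CPM in the high and 123 CPM in the low group of the knockout-labelled library, and 303 and 90.7 CPM in the control library. In other mesenchyme with the gate at 5 UMIs, 0 of 32 genes were called between the high and the low group by collagens, where 1.63% of all genes were called higher and 1.67% lower (3.31% in all), and 22 were higher and 3 lower in both libraries. Over all 2571 genes measured there, 880 were higher and 1197 lower in both, and the median was 0.10 over the 32 genes and -0.03 over all genes.

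Lum-high mesenchymal cells, with the proteoglycan gene Lum and the highest collagen load, carried more of the transcripts than other mesenchyme. None of 33 measured was called, where 2.23% of all genes were called higher and 0.567% lower (2.80% in all), but 26 were higher in both libraries and 0 lower in both. Over all 2645 genes measured, 983 were higher and 678 lower in both. The median was 0.21 against 0.04 over all genes. Calr had 958 CPM in Lum-high and 715 CPM in other mesenchymal cells of the knockout-labelled library and 1016 and 797 CPM in the control library. Pdia6 had 543 and 444 CPM in the knockout-labelled and 692 and 435 CPM in the control library, and Dad1 500 and 377 CPM and 406 and 389 CPM. All 8 roles were higher in Lum-high cells in both libraries, from 1.06-fold for SRP in the knockout-labelled library to 1.34-fold for the disulfide isomerases in the control library. In mesothelium over other mesenchyme none of 34 was called, where 8.66% of all genes were called higher and 8.59% lower (17.2% in all). Signal peptidase was 1.28-fold and 1.33-fold higher in mesothelium, and SRP stood at 0.822-fold and 0.864-fold.

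Between the libraries, the 41 genes took a smaller share of UMIs in the knockout-labelled library in all 7 classes. The ratio of the share in the knockout-labelled over the control library was 0.899 (0.887 to 0.910) in tip cells, 0.954 in trunk cells, 0.923 in endocrine progenitors, 0.882 (0.837 to 0.928) in early endocrine cells, 0.957 in other mesenchyme and 0.906 in mesothelium. In Lum-high cells it was 0.978 (0.936 to 1.02), which includes 1. Doubled gates, which left 3 and 15 early endocrine cells, turned the log2 ratio of the share to 0.51 in that class. With the mesenchyme gate at 5 UMIs the share in Lum-high cells was 1.03% in the knockout-labelled and 1.01% in the control library. Outside the 7 classes, immune cells, in 22 and 83 cells, went the other way at 0.776% against 0.717%. Neural cells, in 40 and 29 cells, had 0.749% against 0.739%, with intervals that overlapped. Endothelial cells, in 31 and 28 cells, were lower at 0.747% against 0.909%. Secretory load moved in part with the share of the 41 genes. Enzymes in tip cells, hormones in early endocrine cells and collagens in Lum-high and other mesenchymal cells were all lower in the knockout-labelled library, and in mesothelium, with 0.186% against 0.182% of collagens, the load was not lower. The part of the load in the result was not tested.

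The shift was small for single genes. A gene was called between libraries at 1.5-fold with at least 50 CPM in either library and 20 UMIs over both. In tip cells 31 of 36 measured genes were lower in the knockout-labelled library, with a median log2 ratio of -0.15 against -0.01 for all genes, and 1 was called, where 4.31% of all genes were (1.86% higher, 2.45% lower). That gene is Tram1, a translocon-associated protein, with 89.2 CPM in the knockout-labelled and 147 CPM in the control library, a 0.608-fold level (0.532 to 0.694). In trunk cells 24 of 37 were lower and 0 were called, where 3.52% of all genes were (1.61% higher, 1.91% lower). Other mesenchyme had 25 of 34 lower and 0 called against 3.07% (1.19% higher, 1.88% lower). Mesothelium had 28 of 35 lower and 0 called against 4.87% (2.08% higher, 2.79% lower). Over all genes measured, 51.3% were lower in the knockout-labelled library in tip, 50.8% in trunk, 52.9% in other mesenchymal and 57.2% in mesothelial cells. In mesothelium the median of all genes was itself at -0.04, against -0.07 over the 35 genes.

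Of the 33 genes measured in all 7 classes, 9 (27.3%) were lower in the knockout-labelled library in every class and 0 higher in every class. Of all 1771 genes measured in all 7 classes, 4.74% were lower and 7.06% higher in every class. The 9 are the channel subunit Sec61a1, its partner Tram1, Ssr2 and Ssr3 of the TRAP complex, Ddost, Calr, Canx, Pdia4 and P4hb. Only signs were counted, with no minimum size. In the class nearest to level the log2 ratio was -0.0078 for Ddost, -0.034 for Pdia4, -0.057 for Ssr2 and -0.061 for Tram1. P4hb was furthest from level by this measure, at -0.16. The 7 classes come from the same 2 embryos, so their signs are not independent. Median-of-ratios scaling left 7 of the 9, without Ddost and Pdia4, and TMM scaling gave 10, with Sec61b. Doubled gates, which left very few early endocrine cells, put 7 of the 9 higher there in the knockout-labelled library (Calr at 0.57 and P4hb at 0.31 on the log2 scale). Ssr3 was lower, and Sec61a1, also lower, did not meet the minima for a measured gene. The same count over all genes is not given here. Canx, the membrane-bound lectin, had 312 CPM in the knockout-labelled and 372 CPM in the control library in tip cells, and 198 against 244 CPM in mesothelium. P4hb, which also serves collagen prolyl hydroxylase, had 236 against 273 CPM in tip cells, 211 against 246 CPM in other mesenchyme and 221 against 276 CPM in mesothelium. Calr had 657 against 758 CPM in tip cells, 715 against 975 CPM in endocrine progenitors, 574 against 1097 CPM in early endocrine cells and 526 against 727 CPM in mesothelium. Pdia3 was higher there in 6 of 7 classes, with 318 against 288 CPM in tip cells and 327 against 284 CPM in other mesenchyme, and was lower in Lum-high cells at 331 against 379 CPM. Sec61b had 790 against 992 CPM in tip cells and 1582 against 1566 CPM in early endocrine cells, and Hspa5 475 against 454 CPM in tip cells and 559 against 773 CPM in early endocrine cells.

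Endocrine progenitors had 2 of 37 genes called, where 7.79% of all genes were (4.28% higher, 3.51% lower). Srprb, the beta subunit of the SRP receptor, had 31.2 CPM in the knockout-labelled and 81.4 CPM in the control library (0.384-fold, 0.221 to 0.635). Sdf2l1, a BiP cofactor, had 70.7 against 43.0 CPM (1.64-fold, 1.06 to 2.54). Early endocrine cells had 7 of 38 called, 6 lower and 1 higher, where 25.9% of all genes were called in so few cells (12.9% higher, 13.0% lower). These cells also differed between the libraries in the hormone RNA given above, and its part in the ratios was not tested. Calr was 0.523-fold (0.408 to 0.664). Spcs3, a signal peptidase subunit, had 2 UMIs in the knockout-labelled and 40 UMIs in the control library, a ratio of 0.199 (0.0233 to 0.767). Srpr was higher, at 265 against 152 CPM (1.75-fold, 1.15 to 2.61). The intervals of Sec61a1, P4hb, Dnajc3 and Sdf2l1 included 1. Lum-high cells had 4 of 37 called, where 17.6% of all genes were (7.72% higher, 9.86% lower). Srp68, an SRP protein, had 87.9 against 34.5 CPM (2.55-fold, 1.31 to 5.23), and Dnajc3, Sdf2l1 and Creld2 were lower with intervals that included 1.

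**Figure D5:**
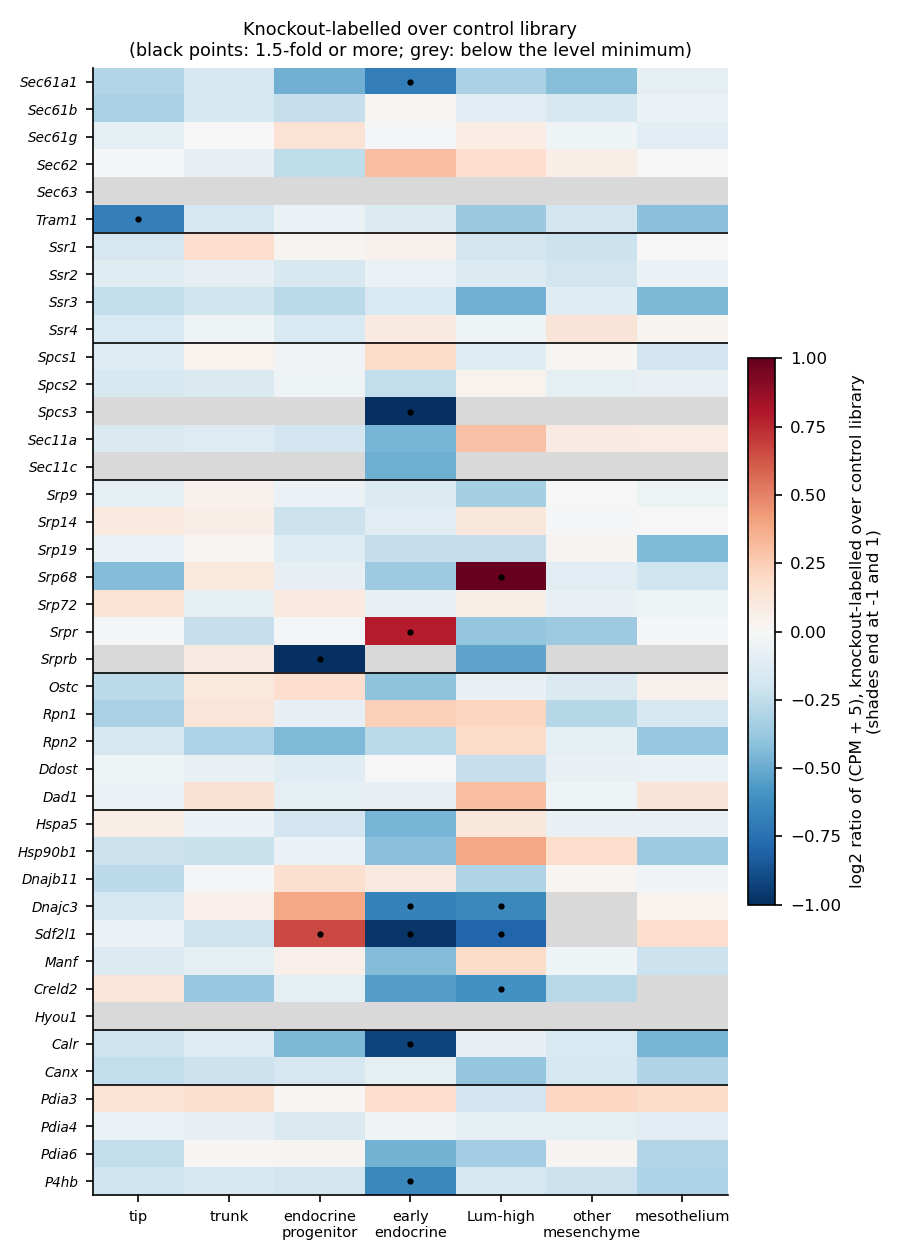
Log2 ratio of (CPM + 5) of the knockout-labelled over the control library for each gene (rows) in each cell class (columns), with blue for lower and red for higher in the knockout-labelled library, grey below the level minimum and black points at 1.5-fold or more. Lines divide the roles, from top to bottom the translocon, TRAP, signal peptidase, SRP, oligosaccharyltransferase, BiP system, lectins and disulfide isomerases; the Calr, Canx and P4hb rows are blue in all 7 classes and the Pdia3 row is red in 6.

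Other genes of the pathway were counted in 6 lists. In tip over trunk cells 3.04% of all genes were called higher and 5.59% lower. Of 14 UPR regulators 3 were measured there, with 1 called higher and 1 lower. Xbp1 had 218 CPM in tip and 53.9 CPM in trunk cells of the knockout-labelled library and 208 and 52.6 CPM in the control library. Ppp1r15a (GADD34), which ends the PERK response, had 28.3 and 64.8 CPM and 43.5 and 86.8 CPM. Atf4, the PERK-branch factor, was not called, with 84.7 and 98.7 CPM in the knockout-labelled and 116 and 127 CPM in the control library. Bhlha15 (Mist1), a factor of mature acinar secretion, was at 5.07 and 9.67 CPM in tip cells, below the level minimum, and Ddit3 (CHOP) at 6.41 and 7.15 CPM, the knockout-labelled library first. Of 22 other folding enzymes 11 were measured, and Ppib, an ER prolyl isomerase, was called higher in tip cells, with 1096 and 502 CPM in the knockout-labelled and 977 and 503 CPM in the control library. Of the other 4 lists, 9 translocation and glycosylation, 4 degradation, 13 transport and 2 collagen folding genes were measured in tip over trunk cells, and 0 were called.

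In early endocrine over trunk cells, the list for ER-associated degradation had 4 of 8 measured genes called higher and 0 lower, against the 22.9% and 18.4% above. Such degradation returns misfolded chains to the cytosol. The 4 called are Sdf4, Sel1l, Os9 and Ufm1, of which Sdf4 is a calcium-binding protein of the Golgi and Ufm1 a ubiquitin-like modifier. The count is thus one of the list and not of degradation genes alone. Sel1l, the scaffold of the Hrd1 ligase, had 73.6 and 25.4 CPM in early endocrine and trunk cells of the knockout-labelled library and 64.7 and 24.6 CPM in the control library. In endocrine progenitors it was already at 70.7 CPM in the knockout-labelled and 94.2 CPM in the control library. Selm, a selenoprotein of the ER, had 191 CPM in endocrine progenitors and 24.2 CPM in trunk cells of the knockout-labelled library, and 359 and 32.0 CPM in the control library. Of 14 other folding enzymes measured, 3 were called higher in early endocrine cells (Selm, Dnajb9 and Erp29) and 2 lower (Prdx4 and Cnpy3). Prdx4, the ER peroxiredoxin, had 51.5 and 180 CPM in the knockout-labelled and 61.0 and 191 CPM in the control library. Tusc3, an oligosaccharyltransferase subunit outside the 41, had 177 and 64.8 CPM and 255 and 69.3 CPM, and was 1 of 9 further subunits called. Of 15 transport genes 2 were called higher, Mia3 and Tmed10. Serpinh1, the collagen chaperone HSP47, was called lower, with 147 and 352 CPM and 179 and 381 CPM. In the mesenchyme it had 1337 and 1042 CPM in Lum-high and other mesenchymal cells of the knockout-labelled library and 1518 and 1175 CPM in the control library, and was not called.

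In Lum-high over other mesenchyme, Erlec1 of the degradation list (1 of 4 measured) and Kdelr3 of the transport list (1 of 15) were called higher. Of all genes 2.23% were called higher and 0.567% lower there. Kdelr3, a receptor that returns ER proteins from the Golgi, had 91.0 and 56.5 CPM in the knockout-labelled and 113 and 66.6 CPM in the control library. In mesothelium over other mesenchyme Kdelr3 was called lower, at 18.4 CPM in the knockout-labelled and 18.0 CPM in the control library. Of all genes 8.59% were called lower there.

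Between the libraries, Atf4 was lower in the knockout-labelled library in all 7 classes and was called in Lum-high cells, with 106 against 182 CPM. In the other 6 classes it ran from 72.3 against 107 CPM in endocrine progenitors to 147 against 153 CPM in early endocrine cells. Ppp1r15a was called lower in early endocrine cells (a log2 ratio of -0.59), Lum-high cells (124 against 192 CPM) and other mesenchyme (95.7 against 209 CPM). Of the genes of collagen folding and hydroxylation, 5 of 8 measured were called lower in knockout-labelled Lum-high cells and 0 higher, where 9.86% of all genes were called lower and 7.72% higher. They are P4ha1, P4ha2, Plod2, Fkbp9 and Fkbp10, with Plod2, a collagen lysyl hydroxylase, at 42.4 against 81.2 CPM and Fkbp9 at 75.8 against 143 CPM. Their values rest on 11 to 58 UMIs each, and for each gene the CPM intervals of both libraries overlapped. Overlap of separate intervals does not show that the interval of a ratio includes 1, and no ratio interval was taken for these genes. Plod2 had 14 against 33 UMIs, with intervals of 23.2 to 71.2 and 55.9 to 114 CPM. In other mesenchyme none of the 5 measured was called. Of 16 transport genes measured in early endocrine cells 8 were called lower and 0 higher in the knockout-labelled library, where 13.0% of all genes were called lower and 12.9% higher. Surf4, a cargo receptor, was the lowest at 58.9 against 153 CPM, and in the same cells Xbp1 had 51.5 against 98.0 CPM. These values come from 17 knockout-labelled and 59 control cells, which also differed in hormone RNA. Xbp1 had 7 against 53 UMIs, and its intervals of 20.7 to 106 and 73.4 to 128 CPM overlapped, again without an interval of the ratio. Fkbp11, an ER prolyl isomerase, was the 1 folding enzyme of 11 called in tip cells, at 39.3 against 78.0 CPM. Of all genes 4.31% were called there (1.86% higher, 2.45% lower).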

How the data were processed

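The deposited matrices hold raw counts of UMIs per gene and barcode, made by the authors with Cell Ranger (no version stated) on GRCm38 or mm10, per the submitters' processing notes; Seurat 2 and 3 are listed there too. In the deposited marker table the column of folds is an average log fold, per the file headers, and was read as a natural log, the base Seurat 2 and 3 use. Live cells had been sorted as 7-AAD negative and counted on 10x 3′ chemistry, per the labels' protocols.

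Cells with at least 500 genes, 1000 UMIs and at most 10% mitochondrial UMIs were kept (3012 of 3044 knockout-labelled and 3871 of 3900 control barcodes). Doublets were scored against simulated doublets (2 per cell, 2000 variable genes, 30 principal components), and 0.8% per 1000 cells, 74 and 122 cells, were removed. Gates needed these raw UMI sums: epithelium 3, mesothelium 3, mesenchyme 20, Chga 3, Neurog3 5, tip 10, Spp1 5 and Lum 5. UMIs were summed per class and library and given as CPM; ratios are log2 of (CPM + 5). Intervals are 95% exact Poisson or Clopper-Pearson, those of single-gene folds are exact conditional binomial. PCR copies were collapsed by UMI, and the intervals cover counting error only. Cells are not replicates, so no test between groups was run. The ratio and call code was tested on simulated data. The 41 genes and the other lists were chosen with earlier results of these data known. Full values go to genes past 1.5-fold, at most 4 a direction per class and 6 per contrast, to a fixed gene of each role, and to 5 fixed pathway genes; other members are named where a set is spelled out, some of them after their values were seen. Names not matched were Amy2b, Srp54c and 4 older collagen hydroxylase symbols. Python 3.11.15, numpy 2.4.6, scipy 1.17.1, pandas 2.3.3 and scikit-learn 1.9.0 were used.
Alternatives changed the scaling (median-of-ratios, TMM), pseudocount, level minimum, cell filter, doublet removal, gates, depth (thinning to 3000 UMIs per cell) and the genes in the total. Promoter sequences are RefSeq's, of GRCm38.p6; 31 of the 41 genes matched by symbol. The full list of tip gate genes is not reported here.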

Additional observations from a re-analysis of the deposited data

Results flagged for a closer look

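Sdf2l1, a cofactor of BiP, passed 1.5-fold in opposite directions in different cell classes. The log2 ratio of the knockout-labelled over the control library was 0.66 in endocrine progenitors (70.7 against 43.0 CPM), but -0.97 in early endocrine cells (58.9 against 120 CPM) and -0.79 in Lum-high cells (33.3 against 61.5 CPM). The values rest on 8 to 65 UMIs each, and the difference between the classes was not tested.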

How the results depend on the processing

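No paired analysis was possible because each group is 1 library. Leaving out a replicate was not possible for the same reason. The share of the 41 genes in the knockout-labelled over the control library, as a log2 ratio, stayed below 0 in all alternatives run for tip, trunk, endocrine progenitor, other mesenchymal and mesothelial cells, in 10 of 11 for early endocrine cells and in 7 of 9 for Lum-high cells. It was -0.13 in tip and -0.10 in mesothelial cells without haemoglobin, mitochondrial and ribosomal genes, and -0.049 in endocrine progenitors thinned to 3000 UMIs per cell. With gates per 10000 UMIs it was -0.071 in early endocrine and 0.033 in Lum-high cells. Doubled gates, which left 3 and 15 early endocrine cells, turned it to 0.51 there, with Calr at 0.57 and P4hb at 0.31, and left no knockout-labelled Lum-high cell, so that they gave no value for that class.

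Counts of the 41 genes past 1.5-fold between libraries moved as follows, with the share over all genes given only where it is stated. A count without that share describes the setting and is not a result about the 41 genes. Thinning gave 3 in tip, 3 in trunk, 5 in endocrine progenitor, 11 in early endocrine, 1 in other mesenchymal and 2 in mesothelial cells. Doubled gates, which left 3 and 15 early endocrine cells, gave counts of 15 in early endocrine and 6 in other mesenchymal cells. For thinning and doubled gates the shares over all genes between libraries are not given here, so these counts have nothing to be set against. No minimum level gave 2 in tip cells and 4 in endocrine progenitors, and leaving out haemoglobin, mitochondrial and ribosomal genes 2 in tip cells. In that last setting 2.31% of all genes were called higher and 2.50% lower in tip cells. A higher minimum gave 0 in endocrine progenitors, 3 in early endocrine and 0 in Lum-high cells. Endocrine progenitors had 1 with gates per 10000 UMIs or a pseudocount of 20, and Lum-high cells 2 with either, with no cell filter or with the mesenchyme gate at 5. Between classes, early endocrine over trunk had 6 without haemoglobin, mitochondrial and ribosomal genes and 5 under TMM scaling. Tip over trunk had 1 under median-of-ratios and 3 under TMM scaling, endocrine progenitor over trunk 1 with gates per 10000 UMIs and 3 when thinned, Lum-high over other mesenchyme 1 when thinned and mesothelium 1 with doubled gates. Thinned, 10.0% of all genes were called higher and 10.1% lower in endocrine progenitor over trunk. In Lum-high over other mesenchyme these shares were 3.14% and 1.96%. Thinned, the lower ratio of both libraries for early endocrine over trunk was -0.048 for Dnajb11 and -0.33 for Creld2.

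With 2 groups of cells in place of 3, the ratio of the high over the low group was 1.10 in knockout-labelled and 1.17 in control tip cells and 1.03 in knockout-labelled early endocrine cells. With the mesenchyme gate at 5 it was 1.09 in control other mesenchyme. Thinned, enzymes took 0.848% and 1.14% of tip UMIs (knockout-labelled, then control), hormones 2.31% of knockout-labelled early endocrine UMIs, and collagens 0.480% and 0.632% in Lum-high and 0.407% and 0.518% in other mesenchymal cells. With doublets kept, enzymes took 0.773% and 1.10% in tip cells and hormones 2.98% in control early endocrine cells. With the mesenchyme gate at 5, collagens took 0.374% and 0.457% in Lum-high and 0.242% and 0.305% in other mesenchymal cells. The causes of these shifts were not tested. Depth limits the early endocrine and Lum-high values most, with 17 and 36 knockout-labelled cells.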
